A study of Mus musculus with 4 samples.

Results

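Notch signalling and the gap junction proteins of arteries were examined in single endothelial cells (ECs) of the mouse left ventricle. The 10 genes were Notch1 and Notch4 (receptors), Dll4 and Jag1 (ligands), Hey1, Hes1 and Heyl (target genes), and Gja1, Gja4 and Gja5 (connexins), taken by symbol from 31253 features. All 10 were found. Their UMI counts (unique molecular identifiers, 1 per captured mRNA molecule) were summed per library over 4 cell classes that were set by other genes, so that no level of these genes was used to choose a cell.

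The 4 libraries came from RFP-positive left ventricular cells sorted by FACS, 2 from mice on Chow diet and 2 from mice given HFD (high-fat diet) plus L-NAME, an inhibitor of nitric oxide synthases. The latter regimen is the model of heart failure with preserved ejection fraction, called HFpEF below. By the study's methods, all mice carried a tamoxifen-induced Cre recombinase under the Cdh5 promoter and the R26-stop-tdTomato reporter, so that ECs and their progeny were red, together with a floxed SR-B1 (Scarb1) gene on a C57BL/6N background. Mice with 1 floxed SR-B1 allele and mice with both were used, and the labels do not say which library came from which. The study compared 4 groups in its single-cell data, each diet with 1 or with both alleles floxed, and 4 libraries are present. The 2 libraries of a diet thus probably differ in genotype and are not replicates of 1 genotype. Their spread then holds any genotype difference as well. The number of mice behind a library was not given in the sources used here, so p-values measure only the spread between these libraries. The ages of the mice are not given in the labels. Since the diets have 2 libraries each, an exact permutation test cannot go below a two-sided p of 0.333.

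Notch receptors on one cell are cleaved after binding a Delta-like or Jagged ligand on a neighbour, and the freed intracellular part joins RBPJ on DNA to switch on Hey and Hes genes. In the endothelium this pathway is known for arterial identity, with Notch1, Notch4 and Dll4 in arterial ECs. Connexins form channels between neighbouring cells. Gja5 (connexin 40) and Gja4 (connexin 37) are the classical connexins of arterial endothelium, and Gja1 (connexin 43) is found more widely.

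Promoter sequence is shown for Gja4 and Gja5, whose levels differed most between artery and capillary ECs. RefSeq (GRCm38.p6) promoters were matched by symbol for 7 of the 10 genes: Notch1, Notch4, Dll4, Jag1, Gja1, Gja4 and Gja5. Each line gives the 250 bases before the gene start, 5′ to 3′ on the gene's strand (Gja4 at chr4:127314040-127314289, minus strand, and Gja5 at chr3:97032152-97032401, plus strand). Capitals mark matches, on either strand, of the ETS core GGAA and of the SOX core ACAAT. ETS and SOX factors act on many endothelial genes.
Gja4: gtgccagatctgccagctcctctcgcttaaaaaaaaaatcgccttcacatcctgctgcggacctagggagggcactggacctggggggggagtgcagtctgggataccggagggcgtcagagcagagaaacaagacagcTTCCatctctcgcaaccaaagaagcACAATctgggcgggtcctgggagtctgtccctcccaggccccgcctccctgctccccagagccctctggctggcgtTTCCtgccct
Gja5: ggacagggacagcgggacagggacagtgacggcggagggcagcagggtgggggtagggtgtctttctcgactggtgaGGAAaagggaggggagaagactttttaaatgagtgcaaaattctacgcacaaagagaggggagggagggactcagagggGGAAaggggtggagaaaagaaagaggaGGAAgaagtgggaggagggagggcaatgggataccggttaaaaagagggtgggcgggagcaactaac

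The ETS core was present in all 7 promoters that were matched and in 93.4% of the 32851 promoters of the table. The SOX core was present in 3 of the 7 (Notch4, Jag1 and Gja4) and in 27.7% of all. The RBPJ core TGGGAA, which contains the ETS core and was searched on both strands, was in none of the 7 windows and in 21.6% of all. These are matches of letters only. On GRCm38 (mm10), the build of the files, Gja4 (ENSMUSG00000050234) spans chromosome 4 from 127311421 to 127314039 on the minus strand in GENCODE, and the Gja5 gene model (ENSMUSG00000057123) spans chromosome 3 from 96904693 to 97077416 on the plus strand, so the Gja5 window lies inside the gene model. Neither window overlaps an annotated exon. The other genes lie on chromosomes 2 (Notch1, 26457903 to 26516663, minus; Dll4, 119325784 to 119335962, plus; Jag1, 137081456 to 137116644, minus), 17 (Notch4, 34564268 to 34588503, plus), 3 (Hey1, 8663359 to 8667256, minus), 16 (Hes1, 30064384 to 30067796, plus), 4 (Heyl, 123233556 to 123249875, plus) and 10 (Gja1, 56377330 to 56402513, plus).

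Of 41843 barcodes, 40154 had more than 200 genes and under 20% mitochondrial UMIs. The median cell held 3754 and 4127 UMIs in the Chow libraries, and 1736.5 and 1619 in the HFpEF libraries, and 10 to 42 barcodes were shared by a pair of libraries. Classes were set per cell by marker UMIs: artery ECs by Fbln5, Sema3g and Bmx, vein ECs by Vwf, Nr2f2, Selp, Ackr1 and Tmem252, capillary ECs by the absence of both sets, and mural cells (pericytes and smooth muscle) by at least 3 of 10 markers such as Rgs5, Kcnj8 and Myh11. This gave 3040 artery, 24307 capillary, 1911 vein and 1427 mural cells. Artery ECs were 11.3% and 12.5% of ECs in Chow and 6.01% and 7.19% in HFpEF. The gates need marker UMIs, so depth and share cannot be told apart in these 4 values. ECs were therefore also counted after thinning each at random to 1000 UMIs, in the order Chow 1, Chow 2, HFpEF 1 and HFpEF 2. Those with no artery marker UMI numbered 4800, 4554, 3169 and 11122, and those with 1 numbered 418, 367, 231 and 888. Those with 2 numbered 123, 125, 74 and 290, and those with 3 or more 89, 117, 46 and 182. These counts were not tested. Ackr1, a defining venule gene, was near 0 in the vein class (0 to 16.1 UMIs per 1000000). The capillary class was defined by absence, so a shallow artery or vein EC can fall into it.

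Levels are given as UMIs of a gene per 1000000 UMIs of the class (CPM), in the order Chow 1, Chow 2, HFpEF 1 and HFpEF 2 unless stated otherwise. Differences between classes are log2 differences with their standard error from edgeR's quasi-likelihood test, with the library as a block and Benjamini-Hochberg adjustment over all genes tested. A gene was called at an adjusted p under 0.05. In bulk sums such as these, fewer cells that express a gene and less RNA per cell cannot be told apart.

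The arterial connexins separated artery from capillary ECs more than any other of the 10 genes. Gja5 stood at 80.8, 92.6, 60.9 and 78.9 CPM in artery ECs and at 0.393, 0.56, 0.895 and 0.81 CPM in capillary ECs. The ranges did not overlap, and the fitted difference was 6.86 on the log2 scale (SE 0.15, adjusted p = 7.85e-18). Gja4 stood at 111, 183, 207 and 130 CPM in artery ECs against 4.84, 4.42, 7.61 and 8.18 CPM in capillary ECs, a log2 difference of 4.50 (SE 0.13, adjusted p = 1.23e-15). With gates set on cells thinned to 1000 UMIs, the differences were 5.37 for Gja5 and 4.04 for Gja4. Gja1 also differed, but little, with 295, 305, 381 and 318 CPM against 220, 240, 287 and 284 CPM (0.26, SE 0.05, adjusted p = 0.000648). The Gja1 call was lost with the gates on thinned cells (0.08, adjusted p = 0.532).

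Single cells were also counted. After thinning every cell to 1000 UMIs, 57 of 728 (7.83%, 95% exact interval 5.98 to 10.0), 63 of 740 (8.51%, 6.60 to 10.8), 17 of 262 (6.49%, 3.82 to 10.2) and 86 of 1175 (7.32%, 5.90 to 8.96) artery ECs held a Gja5 UMI. In capillary ECs the share was 0.0524% to 0.110%. Leukocytes, which should lack the gene, had 0 of 17, 0 of 70, 0 of 38 and 0 of 136 cells with a UMI, which allows shares of up to 17.6%, 4.29%, 7.89% and 2.21%. The leukocyte count is thus too small to set a background for it. Without thinning, 22.5%, 25.8%, 13.3% and 17.4% of artery ECs held a UMI, at median depths of 4365, 4781.5, 2387 and 2748.5 UMIs, against 0, 1.41%, 0 and 1.36% of leukocytes at 7793, 6280, 3344 and 3094 UMIs. Intervals cover counting error only.

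Both ligands and the targets Hey1 and Heyl were higher in artery ECs as well. Jag1 stood at 117, 192, 199 and 255 CPM in artery ECs and at 27.6, 25.6, 36.2 and 47.4 CPM in capillary ECs (2.41, SE 0.08, adjusted p = 1.05e-14). Dll4, the ligand best known from arterial and sprouting ECs, stood at 234, 273, 264 and 225 CPM against 133, 155, 150 and 159 CPM (0.65, SE 0.06, adjusted p = 2.36e-08). The difference was thus larger for Jag1 than for Dll4 in each library.

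Hey1, a transcriptional repressor that Notch switches on, stood at 292, 270, 236 and 225 CPM in artery ECs against 65.2, 44.8, 46.2 and 68.5 CPM in capillary ECs (2.10, SE 0.09, adjusted p = 5.03e-13). Heyl was sparse, with 66 UMIs in all artery ECs and 99 in all capillary ECs, at 4.37, 8.53, 6.62 and 2.47 CPM against 2.42, 2.18, 1.64 and 0.617 CPM. Its ranges lay close together, and it was called (1.55, SE 0.28, adjusted p = 0.000199). Artery ECs also held more UMIs of the 10 mural markers, 298 to 482 CPM against 123 to 223 CPM in capillary ECs, and Heyl is high in mural cells. Their part in the Heyl difference was not tested. Hes1 had the opposite sign. It stood at 462, 373, 325 and 351 CPM in artery ECs and at 523, 437, 493 and 437 CPM in capillary ECs, lower in each of the 4 libraries (-0.38, SE 0.06, adjusted p = 2.12e-05).

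Both receptors were higher too, by less than Jag1 or Hey1. Notch1 stood at 437, 417, 358 and 392 CPM in artery ECs against 256, 210, 214 and 228 CPM in capillary ECs (0.76, SE 0.05, adjusted p = 3.87e-10). Notch4 stood at 173, 124, 96.7 and 115 CPM against 117, 88.3, 72.9 and 89.6 CPM (0.39, SE 0.05, adjusted p = 2.43e-06). The first Chow library was the highest of the 4 in Notch4 in each of the artery, capillary, vein and mural classes. All 10 genes were therefore called between artery and capillary ECs, 9 higher and 1 lower, where 33.4% of the 11302 genes tested were called. Their median log2 difference was 1.15, against -0.01 over all genes tested.

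**Figure D1:**
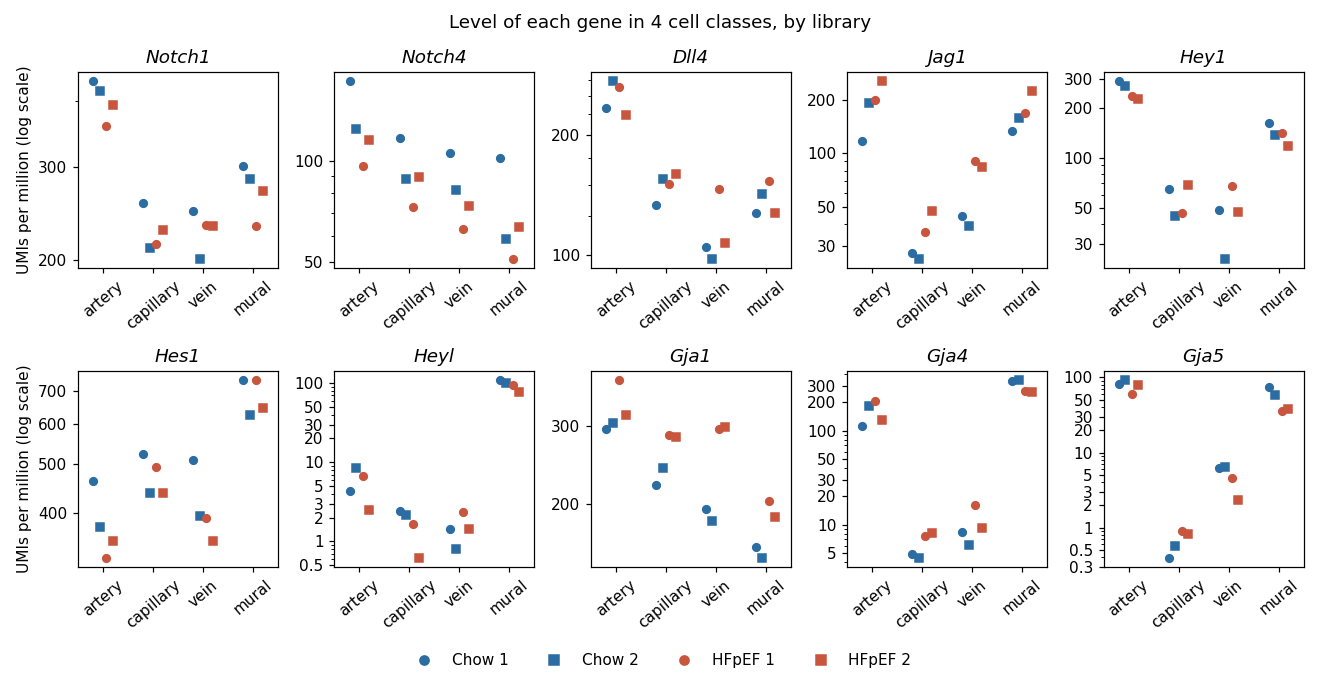
Level of each of the 10 genes in UMIs per 1000000 (log axis, ranges differ between panels) in artery, capillary and vein ECs and mural cells. Each point is 1 library, blue for Chow and red for HFpEF, and the 4 artery points of Gja5 lie between 60.9 and 92.6 while the 4 capillary points lie below 1.

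The levels were also followed along the number of artery marker UMIs in a cell. In ECs thinned to 1000 UMIs, Gja5 ranged over the libraries from 2.70 to 4.38 CPM in cells with no such UMI and from 13.0 to 65.4 CPM with 1. It ranged from 82.8 to 136 CPM with 2 and from 87.0 to 239 CPM with 3 or more, where the first HFpEF library did not go above its level at 2 UMIs. Jag1 ranged from 30.7 to 57.3 CPM at 0 and from 217 to 473 CPM at 3 or more. Hes1 was lower at 3 or more UMIs, with 217 to 427 CPM against 435 to 547 CPM at 0. Cells with 3 or more numbered 46 to 182 a library. The trend is a description without a test.

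**Figure D2:**
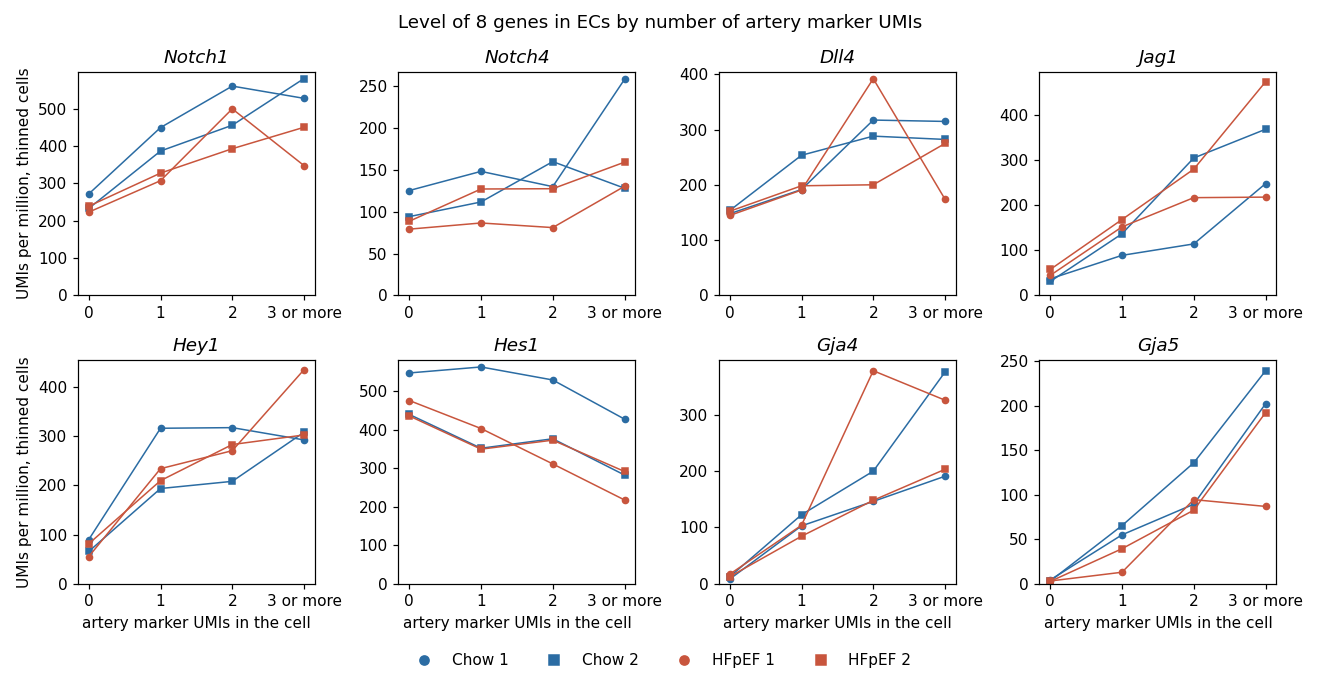
Level of 8 of the genes (UMIs per 1000000) in ECs thinned to 1000 UMIs, by the number of Fbln5, Sema3g and Bmx UMIs in the thinned cell. Lines join the values of 1 library, and Gja4, Gja5, Jag1 and Hey1 climb in all 4 libraries between 0 and 2 UMIs while Hes1 ends lower than it started.

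In vein ECs the 2 ligands differed from capillary ECs in opposite directions. Jag1 was higher in vein ECs, at 44.4, 39.0, 90.5 and 83.3 CPM (0.73, SE 0.09, adjusted p = 1e-06), and Dll4 was lower, at 104, 97.7, 146 and 107 CPM (-0.55, SE 0.07, adjusted p = 5.86e-07). Hey1, at 48.1, 24.5, 67.3 and 47.0 CPM, was lower as well (-0.55, SE 0.10, adjusted p = 0.0002), though in the first HFpEF library it was above the capillary level. Gja5 was higher (2.78, SE 0.44, adjusted p = 2.68e-05) on a total of 43 UMIs, at 6.14, 6.44, 4.64 and 2.30 CPM.

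In all, 7 of the 10 genes were called between vein and capillary ECs, 2 higher (Jag1 and Gja5) and 5 lower (Dll4, Hey1, Hes1, Notch4 and Gja1), against 20.6% of all genes. For Gja1 the sign split by diet. Its log2 ratios of vein to capillary ECs were -0.18 and -0.39 in the Chow libraries and 0.04 and 0.07 in the HFpEF libraries. Notch1 (-0.07), Heyl (-0.33) and Gja4 (0.43, adjusted p = 0.149) were not called. With gates on thinned cells Gja4 was called (1.68, adjusted p = 2.13e-11) and Hes1 was not (-0.17, adjusted p = 0.186), and with 3 marker UMIs Gja4 was called as well (0.74, adjusted p = 0.0494). Gja1 was not called without either Chow library (adjusted p = 0.234 and 0.471), and Notch4 was not called without the second HFpEF library (adjusted p = 0.131). With DESeq2 in place of edgeR 4 genes were called, and Hey1, Notch4 and Gja1 were among those not called.

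Directly between artery and vein ECs, 9 of the 10 genes were called, all higher in artery ECs, where 24.8% of all genes were called. The differences ran from 0.43 for Gja1 to 4.10 for Gja5. Gja4 differed by 4.05 (SE 0.14, adjusted p = 3.56e-16), Hey1 by 2.59 (SE 0.13, adjusted p = 2.62e-13), Jag1 by 1.67 (SE 0.11, adjusted p = 4.27e-11) and Dll4 by 1.17 (SE 0.08, adjusted p = 7.2e-11). Hes1 was not called (-0.12, adjusted p = 0.155). With gates on thinned cells the differences of Gja4 and Gja5 were smaller, 2.32 and 2.66, and both were called. Heyl, with 12 UMIs in all vein ECs, was not called without the second Chow library (adjusted p = 0.126).

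Mural cells, like artery ECs, had more Jag1, Gja4 and Gja5 than capillary ECs, and they also had more Heyl. Heyl, a Hey family member found in smooth muscle and pericytes, stood at 110, 99.7, 93.3 and 77.3 CPM in mural cells, against 0.617 to 2.42 CPM in capillary ECs (5.73, SE 0.17, adjusted p = 8.95e-18). Gja4 stood at 335, 346, 263 and 259 CPM (5.45, SE 0.14, adjusted p = 9.34e-19), above each artery value. Jag1 stood at 134, 158, 169 and 223 CPM (2.21, SE 0.08, adjusted p = 3.95e-16), within the artery range. Of the 10 genes 9 were called, 6 higher and 3 lower (Dll4, Notch4 and Gja1), against 46.5% of all genes.

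The cells had been sorted for an endothelial reporter, and 1087 of the 1427 mural cells also held a Pecam1 or Cdh5 UMI. In the other 340, Gja4 stood at 688, 444, 489 and 416 CPM, Heyl at 312, 241, 141 and 129 CPM, Hes1 at 1036, 1036, 1316 and 1109 CPM and Jag1 at 119, 134, 152 and 220 CPM. Gja5 was at 0, 3.44, 54.4 and 0 CPM, on 6 UMIs in all, and Gja1 at 0, 0, 32.6 and 10.5 CPM. Against capillary ECs, these cells kept the calls of Gja4 (6.08), Heyl (6.75), Jag1 (1.99) and Hes1 (0.99), while Hey1 was no longer called (0.09, adjusted p = 0.828) and Notch1 was called lower (-0.84, adjusted p = 1.68e-05). The Gja5 difference was 3.25 (adjusted p = 0.00418) there and 6.13 (SE 0.24, adjusted p = 1.18e-15) in the whole class, or 3.82 in the whole class with gates on thinned cells. The whole mural class also held 447 to 607 CPM of the artery markers Fbln5, Sema3g and Bmx together. The part of artery EC RNA in its Gja5 level was not tested.

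**Figure D3:**
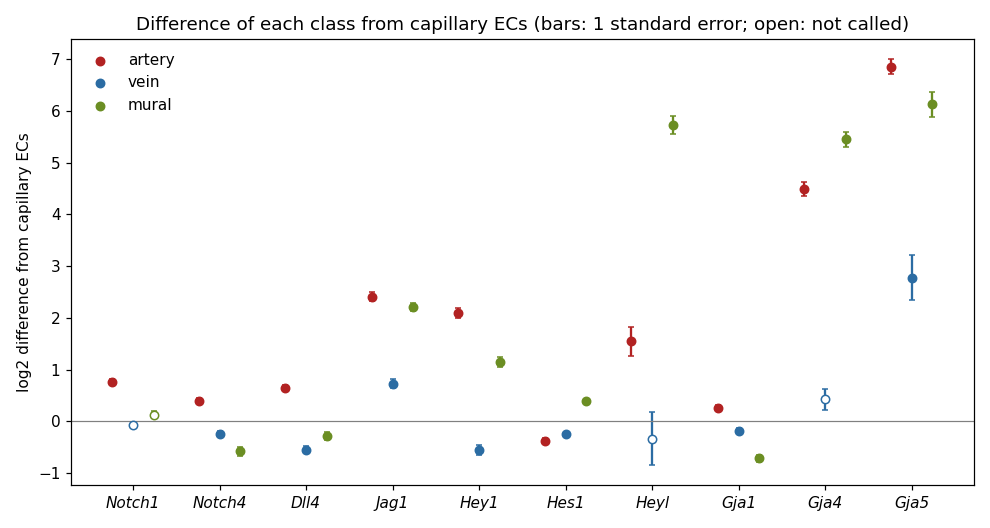
Log2 difference of artery ECs, vein ECs and mural cells from capillary ECs for the 10 genes, from the fit with library as a block. Bars are 1 standard error and open symbols were not called; Gja5 and Gja4 reach the highest artery values (6.86 and 4.50), and Hes1 is the 1 gene lower in artery ECs.

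By mean level over the 4 libraries (± SD, n = 4), Jag1 ran from artery ECs (191 ± 56.7 CPM) and mural cells (171 ± 37.8), whose ranges overlap, to vein ECs (64.3 ± 26.3) and capillary ECs (34.2 ± 9.95), which overlap each other. Dll4 ran from artery ECs (249 ± 23.3) to capillary ECs (149 ± 11.3), mural cells (138 ± 12.8) and vein ECs (114 ± 22.0), and the last 3 overlap. The mural cells without a Pecam1 or Cdh5 UMI held only 0 to 87.0 CPM of Dll4. Notch1 was highest in artery ECs (401 ± 34.0), which overlapped none of the other 3 classes. Mural cells (272 ± 29.3), vein ECs (228 ± 19.5) and capillary ECs (227 ± 20.7) overlapped. Endocardial ECs, which are outside these classes, held 280 to 525 CPM of Notch1 on 22 to 68 cells a library, a range that spans the artery values. Notch4 ran from artery ECs (127 ± 32.4) to capillary ECs (92.0 ± 18.4), vein ECs (80.9 ± 18.2) and mural cells (68.8 ± 22.6), each overlapping the next. The mural cells without a Pecam1 or Cdh5 UMI held 10.9 to 36.7 CPM of Notch4. The part of EC RNA in the mural values of Dll4 and Notch4 was not tested. Leukocytes held 120 to 202 CPM of Notch1, 15.0 to 132 CPM of Dll4 and 198 to 293 CPM of Hes1 on 17 to 147 cells a library. In the first Chow library the leukocyte value of Dll4 (132 CPM, on 19 UMIs) was above its vein value (104 CPM), so the 2 were not separated there. In the other libraries it was below, at 60.0, 15.0 and 79.5 against 97.7, 146 and 107 CPM. Leukocytes also held 11359 to 15589.5 CPM of capillary marker UMIs, and the part of EC RNA in their values was not tested.

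Within artery ECs, cells with Fbln5 and without Sema3g (448 cells) were set against cells with Sema3g and without Fbln5 (696 cells). The rest of the 3040 artery ECs, with UMIs of both genes or of neither, entered neither set. Gja4 stood at 102, 204, 262 and 111 CPM in Fbln5 artery ECs and at 32.6, 43.7, 38.2 and 32.7 CPM in Sema3g artery ECs, without overlap (1.99, SE 0.19, adjusted p = 4.68e-19). Jag1 stood at 113, 163, 214 and 204 CPM against 55.2, 61.2, 45.9 and 92.4 CPM (1.27, SE 0.17, adjusted p = 6.58e-11), and Gja5 at 26.8, 44.96, 39.7 and 58.0 CPM against 18.4, 15.0, 22.9 and 19.9 CPM (1.29, SE 0.30, adjusted p = 0.0014). The 2 sets held 69 and 54 Gja5 UMIs, of 1063 in all artery ECs. Gja5 in all artery ECs, at 60.9 to 92.6 CPM, lay above each value of the Fbln5 set.

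Hey1 was the fourth gene called (0.41, SE 0.13, adjusted p = 0.046), so that 4 of the 9 genes tested were called where 3.77% of all genes were. Notch1, Notch4, Dll4, Gja1 and Hes1 lay between -0.16 and 0.15 and were not called. Gates set on thinned cells left 0 calls, with Gja4 at 0.33 (adjusted p = 0.803) and Jag1 at 0.49 (adjusted p = 0.403), and DESeq2 and the gate of 3 marker UMIs left 2 each. Gja4 and Jag1 were the 2 left in both. Without the second Chow library and without the second HFpEF library 2 calls were left in each case, and Hey1 was not called without the first Chow library either (adjusted p = 0.298). Hey1 was called in 2 of 10 alternatives, and was lost also without a low-count filter (adjusted p = 0.177) and without high doublet scores (adjusted p = 0.282). Mural marker UMIs were 374 to 703 CPM in Fbln5 and 156 to 451 CPM in Sema3g artery ECs, higher in the Fbln5 cells of each library, and their part in the differences was not tested.

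The comparison of HFpEF with Chow within each class was tested with diet as the only term, 2 libraries against 2. Of the 10 genes, 0 were called in all ECs, in artery ECs, in capillary ECs and in mural cells, where 0.0619%, 0.438%, 0.0662% and 0.448% of all genes were called, and 1 of 9 was called in vein ECs, where 0.742% were. At an unadjusted p under 0.05 there were 4, 3, 4 and 4 genes in the first set of classes, where 18%, 11.4%, 17.5% and 10.4% of all genes were, and 4 in vein ECs, where 11.8% were. DESeq2 called 1 (Jag1) in capillary ECs and 0 in the other 4.

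Jag1 was the gene called. In vein ECs it stood at 44.4 and 39.0 CPM in Chow and at 90.5 and 83.3 CPM in HFpEF, on 123, 97, 39 and 289 UMIs. Both HFpEF libraries lay above both Chow libraries, and the fitted change was 1.04 on the log2 scale, or 2.06-fold (SE 0.18, edgeR adjusted p = 0.0244). The call did not hold with DESeq2 (adjusted p = 0.0576), with gates on thinned cells (0.93, adjusted p = 0.24) or without the second HFpEF library (1.15, adjusted p = 0.136). Vein ECs of the HFpEF libraries had a median of 2672 and 3164.5 UMIs against 5045 and 5499 in Chow. The gate gene Selp, an adhesion molecule of activated veins, also rose there (1.66, adjusted p = 0.0372). With a vein gate that did not use Selp or Ackr1, the Jag1 change was 1.06 (adjusted p = 0.0163). That gate kept Tmem252, whose edgeR change in vein ECs was 1.12 (SE 0.24, adjusted p = 0.0571). The part of the gate genes in the Jag1 change was not tested.

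Jag1 lay above Chow in both HFpEF libraries in each of the other classes too, without a call. The log2 values were 0.59 in artery ECs (SE 0.19, adjusted p = 0.26), 0.68 in capillary ECs (SE 0.14, adjusted p = 0.108), 0.48 in mural cells (SE 0.16, adjusted p = 0.262) and 0.48 in all ECs (SE 0.17, adjusted p = 0.212). Without the second Chow library the artery value was 0.99 (adjusted p = 3.65e-05), and without the first it was 0.28. Leaving out the first HFpEF library gave 0.82 in capillary ECs (adjusted p = 0.0244) and 0.62 in mural cells (adjusted p = 0.0491), both called. DESeq2 called Jag1 in capillary ECs (0.67, adjusted p = 0.0346). In leukocytes Jag1 stood at 13.9, 29.0, 15.0 and 19.4 CPM. Cells with Fbln5 and without Sema3g numbered 44, 74, 55 and 275 of the 737, 748, 279 and 1276 artery ECs. The gate gene Fbln5 itself had a diet value of 0.50 in artery ECs (SE 0.15, edgeR adjusted p = 0.223), not called. The part of this make-up in the artery Jag1 value was not tested.

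Gja1 had the next lowest p in vein ECs. It stood at 194 and 183 CPM in Chow and at 295 and 299 CPM in HFpEF (0.67, SE 0.14, adjusted p = 0.0507), close to the threshold, which it passed with a hemoglobin filter (adjusted p = 0.0468) or with no cell filter (adjusted p = 0.0424). In capillary ECs it stood at 220, 240, 287 and 284 CPM (0.32, SE 0.11, adjusted p = 0.197), and in artery ECs and mural cells it also lay above Chow in both HFpEF libraries. Jag1 and Gja1 were the 2 of 9 genes that did so in all 4 classes. This was true of 4.32% of the 9280 genes tested in each. In all 4 classes 0 of the 9 genes lay below, which was true of 5.09%. Mural cells without a Pecam1 or Cdh5 UMI held only 6 Gja1 UMIs in all. The part of EC RNA in the mural Gja1 values was not tested. In leukocytes, which also held capillary marker UMIs, Gja1 was above Chow in HFpEF too, at 90.6 and 82.8 against 112 and 164 CPM.

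Among the targets, Hey1 in artery ECs stood at 292 and 270 CPM in Chow and at 236 and 225 CPM in HFpEF (-0.28, SE 0.13, adjusted p = 0.43). Hes1 in artery ECs stood at 462 and 373 against 325 and 351 CPM (-0.29, SE 0.14, adjusted p = 0.442). In capillary ECs the 2 genes had values of 0.08 and -0.04, and the diets overlapped. Heyl in capillary ECs stood at 2.42, 2.18, 1.64 and 0.617 CPM (-1.32, SE 0.48, adjusted p = 0.222), and it was too sparse to be tested in vein ECs. Hey1 in vein ECs, where the diets overlapped, stood at 48.1, 24.5, 67.3 and 47.0 CPM (0.52, adjusted p = 0.517) and was called without the first Chow library (1.10, adjusted p = 0.0176).

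Notch4 had a negative value in every class, from -0.45 in artery ECs (SE 0.17, adjusted p = 0.335) to -0.33 in capillary ECs (SE 0.16, adjusted p = 0.337). Its diets overlapped in capillary and mural cells, where the second Chow library lay within the HFpEF range. Without the second Chow library the artery value was -0.67. Over the alternatives the Notch4 value ran from -0.67 to -0.18 in artery ECs and from -0.52 to -0.11 in capillary ECs. It ran from -0.59 to -0.21 in vein ECs and from -0.76 to 0.05 in mural cells. Notch1 lay between -0.18 and 0.06 and Dll4 between -0.06 and 0.26 over the 4 classes.

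The arterial connexins had values of either sign, none of them called at the main settings. In capillary ECs Gja4 stood at 4.84 and 4.42 CPM in Chow and at 7.61 and 8.18 CPM in HFpEF (0.78, SE 0.19, adjusted p = 0.147), without overlap. Over the 14 alternatives this value ran from 0.33 to 0.85, and it was called in 2. These were the fit with the replicate number as a block and the fit without a low-count filter. ECs thinned to 1000 UMIs and without an artery marker UMI, vein ECs among them, were also read. They held 8.33 and 12.5 CPM of Gja4 in Chow and 17.0 and 12.7 CPM in HFpEF. In mural cells Gja4 was at 335 and 346 CPM against 263 and 259 CPM (-0.36, SE 0.14, adjusted p = 0.374). Gja5 in mural cells stood at 75.4 and 58.8 CPM in Chow and at 36.1 and 37.7 CPM in HFpEF (-0.81, SE 0.22, adjusted p = 0.113), and in artery ECs at 80.8, 92.6, 60.9 and 78.9 CPM (-0.25, adjusted p = 0.583). In vein ECs Gja5 stood at 6.14 and 6.44 CPM in Chow and at 4.64 and 2.30 CPM in HFpEF (-1.24, SE 0.57, adjusted p = 0.421), on 17, 16, 2 and 8 UMIs, and the value was -0.39 without the second HFpEF library. Both HFpEF libraries lay below both Chow libraries in these 3 classes. In capillary ECs they lay above, at 0.393 and 0.56 against 0.895 and 0.81 CPM (0.79, SE 0.48, adjusted p = 0.43), on 42 UMIs, and with gates on thinned cells the value was -0.37. The mural Gja5 value was called without a low-count filter (edgeR adjusted p = 0.0332). The mural cells without a Pecam1 or Cdh5 UMI held too few Gja5 UMIs, 6, for a test. The artery markers Fbln5, Sema3g and Bmx together were also lower in HFpEF mural cells, at 467 and 447 against 607 and 575 CPM in Chow. The part of artery EC RNA in the mural Gja5 value was not tested.

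Counted without a test, the HFpEF libraries lay all above Chow for 2, 4, 4 and 2 of the genes in artery, capillary, vein and mural sums, where this was so for 20.7%, 24%, 20.7% and 17.8% of all genes tested, and for 2 in all ECs, where it was so for 23.5%. They lay all below for 5, 1, 3 and 4, where this was so for 22.7%, 25.3%, 23.1% and 22.8%, and for 3 in all ECs, where it was so for 26.9%. Depth differed between the diets, and its part in these values was not tested.

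**Figure D4:**
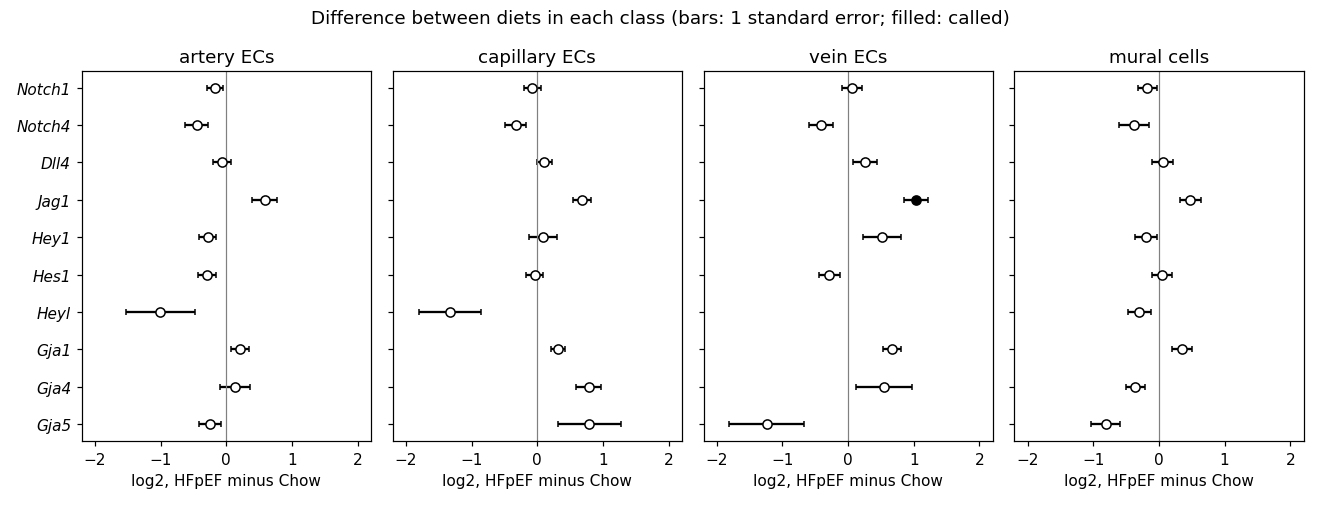
Log2 difference between HFpEF and Chow for the 10 genes in artery, capillary and vein ECs and mural cells (2 libraries against 2). Bars are 1 standard error, and the 1 filled symbol is Jag1 in vein ECs (1.04), the value that was called; Heyl was not tested in vein ECs.

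Whether the diet difference itself differed between artery and capillary ECs was tested by an interaction term. It was called for 0 of the 10 genes and for 0.0885% of all genes, with an unadjusted p under 0.05 for 3 of the 10 and for 4.53% of all genes. The lowest p values belonged to Hey1 (-0.48, SE 0.15, adjusted p = 0.891) and Gja4 (-0.75, SE 0.25, adjusted p = 0.944). Without a low-count filter 1 of the 10 genes, Hey1, was called, lower in artery ECs. Without the first Chow library, which leaves a lone Chow library, the values were -0.65 for Hey1 and -1.14 for Gja4. Over the 10 alternatives Hey1 ran from -0.65 to -0.03 and Gja4 from -1.14 to -0.23. With gates on thinned cells, 0 of the 10 genes had an unadjusted edgeR p under 0.05. Shallow artery ECs can fall into the capillary class, and their part in these values was not tested. DESeq2 called 0 as well.

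The rest of the pathway was read from a list of 85 genes: other ligands and receptors, receptor processing, endocytosis, nuclear partners, further targets, arterial genes and other connexins. Between artery and capillary ECs, 24 of 68 tested were higher and 9 lower, where 17.3% and 16.1% of all genes were. Of the 14 arterial genes tested 12 were higher, among them Gkn3 (6.38), the matrix protein gene Mgp (5.53), the growth factor gene Vegfc (3.47) and Stmn2 (2.69), and the ubiquitin ligase gene Neurl1b was lower (-1.76). Of the 18 genes of the nuclear complex, 4 were higher and 1 lower. Of the 14 processing genes tested, 3 were higher and 1 lower.

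Vein ECs had 20 of 66 genes of the list higher and 10 lower than capillary ECs, where 11.9% and 8.77% of all genes were. Mgp (4.45), Gkn3 (3.35), Vegfc (2.23), Myc (2.21) and Panx1 (1.66) had the largest values. Against vein ECs, artery ECs had 19 of 68 higher and 13 lower, where 11.5% and 13.3% of all genes were. The largest values were Gkn3 (2.99), Myc (-2.85), Notch3 (2.22), the netrin receptor gene Unc5b (1.97) and Neurl3 (-1.63). In vein ECs Gkn3 had 2, 11, 2 and 2 UMIs and Notch3 0, 1, 0 and 6. Notch3 was at 2.73 to 4.71 CPM in artery ECs and 504 to 636 CPM in mural cells. Mural marker UMIs were 298 to 482 CPM in artery and 114 to 232 CPM in vein ECs, and their part was not tested. Mural cells had 24 of 70 higher and 20 lower than capillary ECs, where 24.2% and 22.3% of all genes were, among them Notch3 (8.82), the receptor of smooth muscle and pericytes, with Mgp (6.58), Dtx4 (6.41) and Hey2 (5.12). Fbln5 artery ECs had 3 of 54 higher and 0 lower than Sema3g artery ECs, where 2.09% and 1.69% of all genes were, and the 3 were Mgp (3.08), Vegfc (1.64) and Stmn2 (1.03).

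With diet, the list had 0 of 69 called in all ECs and 0 of 68 in capillary ECs, and 1 in each of the other classes. Myc, a proto-oncogene that Notch can switch on, rose in artery ECs (2.72, SE 0.44, adjusted p = 0.0123), from 1.91 and 1.25 CPM to 9.27 and 10.99 CPM, on 7, 5, 7 and 49 UMIs. The 10 immediate early genes, which cell dissociation can induce, summed to 21260, 23158, 22990 and 20008 CPM in artery ECs, with the diets overlapping. Myc rose in vein ECs as well (1.46, SE 0.20, adjusted p = 0.00705), from 22.4 and 21.3 CPM to 65.0 and 58.2 CPM. Notch2 rose in mural cells (1.23, SE 0.26, adjusted p = 0.0314), from 18.7 and 16.6 CPM to 30.1 and 45.6 CPM. The interaction was called for Mgp (-1.38, edgeR adjusted p = 0.00642). In artery ECs Mgp stood at 510, 1152, 695 and 669 CPM, with the diets overlapping. Shallow artery ECs can fall into the capillary class, and their part in this value was not tested.

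Over the 16 sums of 4 classes and 4 libraries, the genes whose log2 level followed a gene of the group most closely (Pearson's r over 8089 genes, sums that share libraries and depth, as a description) were Fads3 (0.99), Afap1l2 (0.98) and Msrb3 (0.98) for Gja4, Pcsk5 (0.98), Slc45a4 (0.97) and Eps8l2 (0.97) for Gja5, and S100a6 (0.97), Fn1 (0.97) and Frmd4a (0.96) for Jag1. For Heyl they were Rgs5 (0.99), Epb41l1 (0.98) and Des (0.98), and for Hey1 St8sia6 (0.98), Fam129b (0.97) and Epas1 (0.97). Rgs5 is among the markers that set the mural class, so its r with a gene high in mural cells follows in part from the gate. For Dll4 they were Crybg1 (0.96), Efnb2 (0.94) and Ldb2 (0.94), of which Efnb2 encodes the arterial ephrin-B2. For Notch1 they were Rgs3 (0.96), Fam129b (0.95) and Smad6 (0.95), and for Notch4 Ly6c1 (0.93), Slc9a3r2 (0.93) and Rapgef1 (0.93). Hes1 was followed by Ggt5 (0.95), Itgb5 (0.94) and Nexn (0.93), and Gja1 by Pak1ip1 (0.91), Cyyr1 (0.90) and Ipmk (0.89).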

How the data were processed

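Single-cell 3' libraries (10x Genomics V3) of 4 samples, 2 Chow and 2 HFpEF, were used. The deposited values are UMI counts per gene and cell, which the authors made with fastp and Cell Ranger 5.0.1 on mm10 (Ensembl genes), with a downsampling of reads between samples that the methods describe. Cells with more than 200 genes and under 20% mitochondrial UMIs were kept. The authors' test over cells was replaced by sums per library, since cells are not replicates. A library's total was 11163876 to 48003732 UMIs over all its barcodes, before this filter, so HFpEF library 1 has the largest counting error.

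Cells were gated by markers, leukocytes and fibroblasts first (3 marker genes each), then mural (3 genes), lymphatic (2 genes) and endocardial cells, then ECs (1 UMI of Pecam1 or Cdh5), with 2 artery or vein UMIs for those classes. The automatic threshold of Scrublet called 0 doublets in each library, so doublets were kept and the highest scores were left out in an alternative. Sums were tested with edgeR 4.0.16 in R 4.3.3 (quasi-likelihood, TMM, filterByExpr, Benjamini-Hochberg over all genes tested), with DESeq2 1.42.0 as an alternative. The fits were tested on simulated counts with the same spread set for all genes. With diet, a log2 change of 1 was recovered for 51% of changed genes in artery and 71.7% in capillary ECs. It was recovered for 40% in vein ECs and 52.5% in mural cells, and for 20.2% in the interaction. A gene that was not called can thus still differ by that much. Tables used Python 3.11.15, numpy 2.4.6, pandas 2.3.3, scipy 1.17.1, scanpy 1.11.5 and matplotlib 3.10.9. Shares have 95% exact Clopper-Pearson intervals, and a count of 0 was given the limit of 3 counts.

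Members and gene lists were chosen with earlier results of these data known. All 10 members were named, with up to 5 called genes of the pathway list in a comparison, by size, and the 3 genes most like each member among those of at least 10 CPM. For mural cells, 1 of those 5 is not reported here.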

Additional observations from a re-analysis of the deposited data

Results flagged for a closer look

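Within-library log2 ratios of the members between 2 classes were checked for a library that stands apart from the other 3, by Dixon's ratio of its gap to the range. Of 50 such sets of 4 libraries, 4 were past the critical value, where chance gives about 1 in 20. For Dll4, artery against capillary ECs, the ratio was 0.963, with log2 ratios of 0.80, 0.82 and 0.81 in the other libraries and 0.50 in the second HFpEF library. For Gja4, artery against vein ECs, it was 0.914, with 4.71 in the second Chow library and 3.59 to 3.69 elsewhere. For Jag1, mural cells against capillary ECs, it was 0.86, with 2.58 in the second Chow library and 2.19 to 2.24 elsewhere. For Gja1, Fbln5 against Sema3g artery ECs, it was 0.875, with -0.56 in the second Chow library and -0.06 to 0.02 elsewhere.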

How the results depend on the processing

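Of 1252 fold changes under alternative settings, over 108 member results, 1159 kept their direction and side of the threshold, 28 lost the call, 22 gained it and 43 changed sign, and 8 DESeq2 values without an adjusted p were left out. The cause was not tested for any of them. The first HFpEF library had the smallest sums, 754942 UMIs in artery and 430750 in vein ECs, and so the largest counting error.

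Same-numbered libraries' deviations from their diet means correlated by -0.07 to 0.03 over the classes. The value rests on 1 difference per diet, so it cannot settle whether the numbers pair libraries. The replicate block gave 2 calls in capillary ECs and 2 in vein ECs (Jag1, adjusted p = 8.17e-05, and Gja1, 0.0107). DESeq2 gave 1 call in capillary ECs, 0 in vein ECs, 4 for vein against capillary ECs and 2 for Fbln5 against Sema3g artery ECs. Without a low-count filter the diet calls were 1 in artery, 3 in capillary, 2 in vein and 1 in mural sums, and 1 for the interaction. Gates on thinned cells gave 0 in vein ECs and 0 for Fbln5 against Sema3g, and 3 marker UMIs gave 2 for the latter. The hemoglobin filter gave 2 and no cell filter 2 in vein ECs. Over all genes, diet calls in all, artery, capillary and vein ECs and mural cells were 8, 46, 8, 75 and 45 with edgeR, 277, 25, 198, 33 and 15 with DESeq2, 261, 113, 575, 201 and 29 with the block, 460, 230, 1020, 236 and 161 without a low-count filter, and 1, 21, 1, 18 and 2 with gates on thinned cells. Leaving out 1 library gave 23 to 103, 28 to 255, 31 to 174, 17 to 172 and 3 to 140.

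Leaving out each library in turn gave 0 to 2 calls in artery, 0 to 1 in capillary, 0 to 2 in vein and 0 to 1 in mural sums, 2 to 4 for Fbln5 against Sema3g and 0 to 2 for the interaction, with a lone library assumed to vary like the others. Log2 values that changed sign there ran as follows in all ECs: Notch1 -0.24 to 0.0002, Dll4 -0.0863 to 0.14, Hey1 -0.36 to 0.0218, Gja4 -0.30 to 0.30 and Hes1 -0.24 to 0.0683. In artery ECs they were Dll4 -0.18 to 0.0924, Heyl -1.41 to 0.063 and Gja4 -0.18 to 0.55. In capillary ECs they were Notch1 -0.21 to 0.0738, Hey1 -0.23 to 0.38 and Hes1 -0.17 to 0.0941, and in vein ECs Notch1 -0.0911 to 0.22. In mural cells they were Dll4 -0.0689 to 0.22, Hes1 -0.0656 to 0.17 and Notch4 -0.76 to 0.0504. For vein against capillary ECs Heyl ran from -0.91 to 0.0706, and for the interaction Notch1 from -0.21 to 0.0037, Jag1 from -0.46 to 0.36 and Gja1 from -0.19 to 0.0128.

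Thinned gates turned Hey1 (-0.0773) and Gja5 (-0.37) with diet in capillary ECs, Notch1 (-0.10) and Gja4 (-1.28) with diet in vein ECs, Heyl (0.18) in vein against capillary ECs, Notch1 (-0.0503) in mural cells against capillary ECs, Gja1 (0.0307) in Fbln5 against Sema3g artery ECs, and Heyl (-0.17) and Gja1 (0.0804) in the interaction. With 3 marker UMIs Dll4 (-0.0736) and Gja4 (-0.34) with diet in vein ECs turned. Mural cells without a Pecam1 or Cdh5 UMI turned Notch1 (0.43) and Hey1 (0.15) with diet and Notch1 (-0.84) against capillary ECs, and leaving out high doublet scores turned Dll4 (-0.071) with diet in mural cells.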
